A study of Mus musculus with 9 samples.

Results

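The genes described here are 10 genes of antigen presentation by major histocompatibility complex (MHC) class I: the heavy chains H2-K1 and H2-D1, their light chain B2m, the peptide transporter Tap1 and Tap2, the loading factor Tapbp, the immunoproteasome subunits Psmb8, Psmb9 and Psmb10, and the transactivator Nlrc5. They were taken by gene symbol from a table of 27179 genes, and all 10 were found and passed the filter on low values, a mean of 10 normalized counts or more, that left 12993 genes to test. Liver (m-lobe) of 9 C57BL/6J mice, wild type by genotype, was profiled by bulk RNA-seq of polyadenylated RNA. Both groups were injected at 17 months of age with an AAV8 vector that carries saCas9, a small Cas9 nuclease, under TBG, a promoter active in hepatocytes, and liver was taken 3 weeks later. The control group of 4 mice received a guide RNA against the Rosa26 locus (sgRosa26) and the other 5 mice a guide against Ccnd1 (sgCcnd1), the gene of the cell cycle driver cyclin D1, so that both groups were given the vector with the nuclease and, by design, a guide that directs a cut. Cutting itself was not measured here. The promoter limits the edit to hepatocytes, whereas the RNA came from every cell of the piece of liver. The libraries are named by letter, A to D for the controls and E to I for sgCcnd1, in the column order of the table.

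MHC class I molecules display peptides of the cell's own proteins at the surface of nearly all nucleated cells, where CD8 T cells and natural killer cells read them. The proteasome cuts proteins into peptides, TAP carries them into the endoplasmic reticulum, and tapasin (Tapbp) holds the transporter next to an empty heavy chain and B2m until a peptide binds. Interferons, above all interferon gamma, raise the pathway through IRF1, among other factors, and exchange the catalytic subunits of the proteasome for Psmb8, Psmb9 and Psmb10. NLRC5 drives class I genes as CIITA drives class II genes. Hepatocytes at rest carry class I, while class II is mostly a product of macrophages, dendritic cells and B cells.

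Depth ranged from 10.8 M to 20.2 M reads per library (M, mega) and did not differ between groups beyond the spread (exact two-sided permutation p = 0.667). Ccnd1, the check of the labels, was at 744 ± 110 normalized counts in sgRosa26 (SD, n = 4) and 362 ± 40.6 in sgCcnd1 (SD, n = 5). It was the only gene of 12993 that passed the test in limma (log2 fold change -1.03, adjusted p = 0.0116). With a library left out its log2 fold change was -1.11 to -0.96, and the limma call was lost without B, D, F, H or I (adjusted p from 0.0558 to 0.0857). Library H of sgCcnd1 stood apart: the Y-linked gene Ddx3y was at 2.00 normalized counts in H and at 810 to 1154 in the other 8 libraries, and Eif2s3y, Kdm5d and Uty were at 0 in H. Library H thus lacked the Y-linked expression that the other 8 had, as RNA of a female would. The labels used here give no sex, and a difference of sex would fall in sgCcnd1 alone. Values of the members, and counts of each list that moved, are also given without H. Hepatocyte markers summed to 1763240 to 2052970 normalized counts in sgRosa26 and 1648590 to 2132600 in sgCcnd1, and were thus abundant in every library. The labels give replicate mice and no batch, so p-values measure the spread between these 9 libraries.

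The members lie on 3 chromosomes in GRCm38.p6, the RefSeq assembly of the build that the submitters' processing notes name. Tapbp (chr17:33919478-33929290), H2-K1 (chr17:33996012-34000619) and H2-D1 (chr17:35263094-35267497) are in the MHC on chromosome 17. Psmb9, Tap1, Psmb8 and Tap2 lie side by side there in 34292 bases (chr17:34182030-34216321). B2m is on chromosome 2 (chr2:122147687-122153082), and Nlrc5 (chr8:94434335-94527272) and Psmb10 (chr8:105935728-105938392) are on chromosome 8.

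Promoter windows of RefSeq (GRCm38.p6), each 300 bases that end 50 bases after the annotated start, were at hand for 8 of the 10 members. H2-K1 has windows for 2 annotated starts, which gives 9 windows. Both H2-K1 windows lie inside the gene span given above, which reaches 34000619, so they do not cover its outer end. Windows are printed for the heavy chains, the light chain and the transporter, because these show what the promoters of genes in 1 pathway share and where they part. Capitals mark letters that match 1 of the motifs named after the sequences, on either strand. The windows are H2-K1 at chr17:34000298-34000597 on the minus strand, H2-D1 at chr17:35262844-35263143 on the plus strand, B2m at chr2:122147437-122147736 on the plus strand, and Tap1 at chr17:34187306-34187605 on the plus strand.
H2-K1: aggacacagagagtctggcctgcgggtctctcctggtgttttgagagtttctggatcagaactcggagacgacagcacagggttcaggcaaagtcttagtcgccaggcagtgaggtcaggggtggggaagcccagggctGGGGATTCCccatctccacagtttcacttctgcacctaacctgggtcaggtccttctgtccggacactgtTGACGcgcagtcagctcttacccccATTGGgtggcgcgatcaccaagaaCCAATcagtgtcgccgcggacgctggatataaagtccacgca
H2-D1: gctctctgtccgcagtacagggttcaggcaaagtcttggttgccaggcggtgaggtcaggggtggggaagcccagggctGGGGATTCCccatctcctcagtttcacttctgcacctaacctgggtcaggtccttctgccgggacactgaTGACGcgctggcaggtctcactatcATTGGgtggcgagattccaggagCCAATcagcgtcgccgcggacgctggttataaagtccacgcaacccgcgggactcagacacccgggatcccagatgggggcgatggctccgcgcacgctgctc
B2m: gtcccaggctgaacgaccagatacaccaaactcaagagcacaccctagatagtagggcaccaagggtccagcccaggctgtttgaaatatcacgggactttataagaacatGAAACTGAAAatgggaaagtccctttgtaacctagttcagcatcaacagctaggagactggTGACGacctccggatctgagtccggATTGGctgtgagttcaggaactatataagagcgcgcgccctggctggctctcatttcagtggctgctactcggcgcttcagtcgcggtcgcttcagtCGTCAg
Tap1: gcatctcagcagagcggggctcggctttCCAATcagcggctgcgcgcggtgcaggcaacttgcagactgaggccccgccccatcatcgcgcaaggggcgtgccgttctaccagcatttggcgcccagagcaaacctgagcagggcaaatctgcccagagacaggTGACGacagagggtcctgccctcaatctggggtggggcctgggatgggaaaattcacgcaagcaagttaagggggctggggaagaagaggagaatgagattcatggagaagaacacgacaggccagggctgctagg

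The motifs searched on both strands were an NF-kB site of class I enhancers (GGGGATTCC), the letters bound by NF-Y (CCAAT), a cyclic AMP response element core (TGACG), a core of the X1 box (AGCAAC) and a pair of interferon regulatory factor sites (GAAANNGAAA). GGGGATTCC was found at H2-K1 and H2-D1 and at no other of the 8 members, against 0.25% of all 32851 windows. The 2 heavy chain windows share a run of 47 bases that holds it. CCAAT was found at 6 of the 8 members (all but Psmb8 and Psmb10), against 37.4% of all windows, and TGACG at 5 (H2-K1, H2-D1, B2m, Tap1 and Psmb9), against 20.8%. An exact match to GAAANNGAAA was found at B2m alone (3.44% of all windows). Other forms of interferon response sites were not searched, so the heavy chain windows are not shown to lack one. AGCAAC, in 14.8% of all windows, was in none of the 9. Psmb9 and Tap1 start 225 bases apart and are read in opposite directions, so their windows share 275 bases, and the CCAAT and TGACG printed for Tap1 are also those of Psmb9. A match is a string of letters, not a shown binding site, and the lack of a match does not show that a site is absent.

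Levels of the 10 members spanned 420-fold in sgRosa26 when normalized counts were divided by the exon length of the longest coding transcript in kilobases (kb). B2m was highest, at 35832 normalized counts per kb, followed by H2-K1 at 11816, H2-D1 at 2988 and Tapbp at 763. These 4 stood in this order in 9 of 9 libraries, with no overlap between neighbours in the control group. Psmb10 and Psmb8 followed at 329 and 325, then Psmb9 at 230 and Tap1 at 216, then Tap2 at 123 and Nlrc5 at 85.4. Psmb10 lay above Psmb8 in 6 of 9 libraries and Psmb9 above Tap1 in 5 of 9, so neither pair was separated beyond its spread. The control ranges of Psmb8 and Psmb9 also overlapped, although Psmb8 was the higher in 9 of 9 libraries. H2-K1, H2-D1 and the H2-Q and H2-T genes are near copies of each other, and how reads that fit several of them were counted is not given in the sources used here, so the levels of single heavy chains are uncertain.

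Across groups, no member of the class I pathway passed the test, and every estimate was lower in sgCcnd1, from 74.6% of the control mean for Psmb9 to 95.7% for H2-D1. Of the 10 members, 0 passed the limma test (adjusted p from 0.384 for Psmb9 to 0.899 for H2-K1), where 0.0077% of all genes were called lower. Also 0 were called lower by DESeq2 on the recovered reads, which called 0.539% of all genes lower, or by edgeR (adjusted p from 0.358 to 0.854). The estimate was below 0 for 10 of 10 members, against 47.1% of all genes, with a median log2 fold change of -0.19 against 0.01 over all genes tested. At an unadjusted p under 0.05, 2 members (Psmb9 and Tapbp) were lower, against 5.74% of all genes, and 4 were so by edgeR (with Tap1 and Nlrc5), against 6.15% of all genes, and 3 by DESeq2 (with Tap1), against 5.49%. No member was free of overlap between the groups, against 1.97% of all genes that lay lower in all 5 sgCcnd1 libraries. The unadjusted limma count moved with single libraries. Without H, 0 members were at an unadjusted p under 0.05, against 4.29% of all genes, and without C there were 5, against 5.37%. Without B, D, E or F there was 1 each, against 4.11%, 6.37%, 7.13% and 5.41%.

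**Figure D1:**
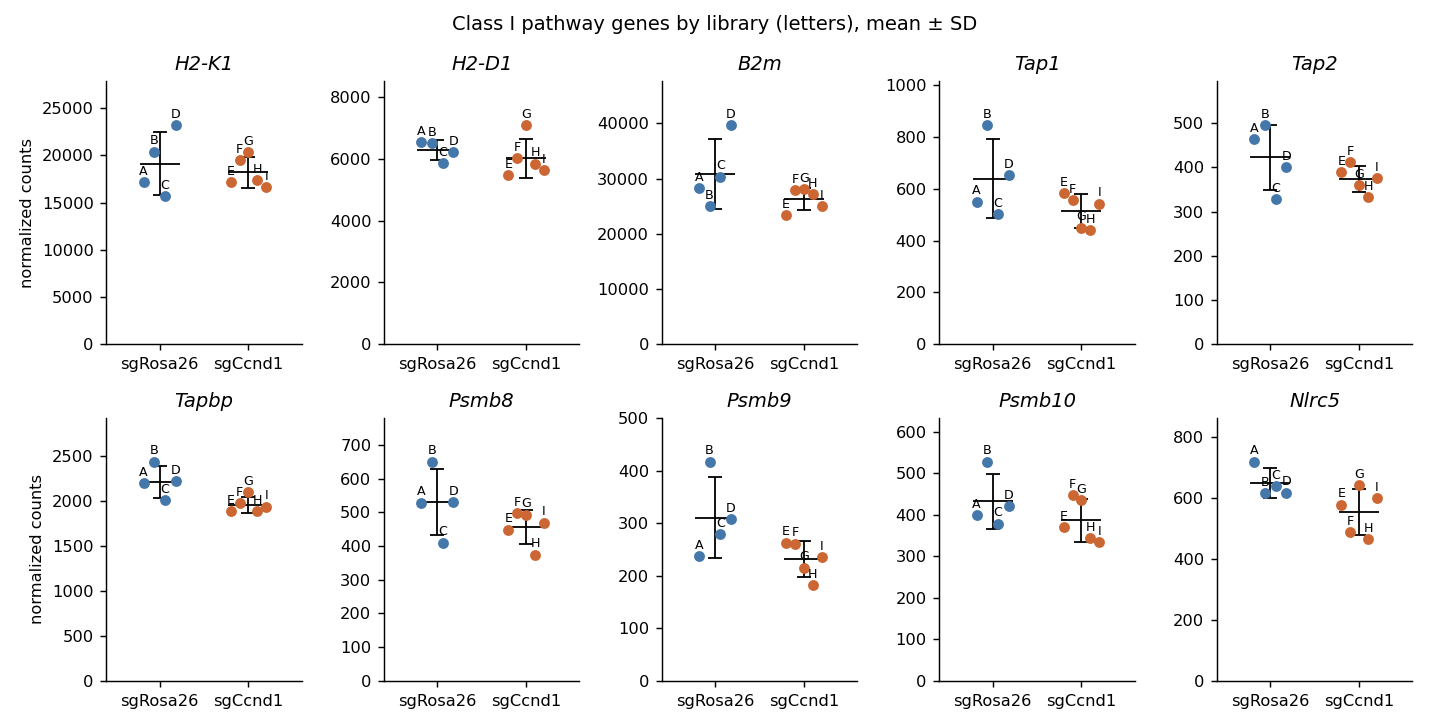
Normalized counts (y axis, from 0) of the 10 class I pathway genes in each library, with the controls (A to D) and then sgCcnd1 (E to I) on the x axis and bars for the mean ± SD. The groups overlap in every panel, and library B is the highest of 9 for Tap1, Tap2, Tapbp, Psmb8, Psmb9 and Psmb10.

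The heavy chains present the peptide, and they were the least different of the 10. H2-K1 had 17184, 20405, 15706 and 23226 normalized counts in A to D and 17154, 19513, 20361, 17420 and 16618 in E to I. The 5 sgCcnd1 libraries lay inside the control range. The mean was 19130 ± 3362 in sgRosa26 (SD, n = 4) and 18213 ± 1628 in sgCcnd1 (SD, n = 5), a log2 fold change of -0.06 (95% interval -0.33 to 0.21, limma adjusted p = 0.899). Its sign turned to 0.04 without library D, the highest control.

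H2-D1 had 6528, 6518, 5860 and 6215 normalized counts in A to D and 5463, 6020, 7097, 5846 and 5636 in E to I. Library G was above all controls and E, H and I below all of them. The means were 6280 ± 315 (SD, n = 4) and 6012 ± 642 (SD, n = 5), a log2 fold change of -0.07 (95% interval -0.27 to 0.13, limma adjusted p = 0.817). The lower bounds of the 2 intervals, -0.33 for H2-K1 and -0.27 for H2-D1, limit the size of drop at that confidence under this scaling only. With quantile normalization the log2 fold changes were -0.177 for H2-K1 and -0.170 for H2-D1. Those of Tap2 and Psmb10 were then close by, at -0.184 and -0.186.

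B2m, the light chain that every class I molecule needs to reach the surface, had 28197, 25014, 30337 and 39711 normalized counts in A to D and 23396, 27886, 28017, 27248 and 24959 in E to I. Library D alone was far above the rest, and the other 8 libraries lay between 23396 and 30337. The means were 30815 ± 6321 (SD, n = 4) and 26301 ± 2037 (SD, n = 5), a log2 fold change of -0.21 (95% interval -0.50 to 0.08, limma adjusted p = 0.585). Without D the log2 fold change was -0.08.

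Tap1, which pairs with Tap2 to form the peptide pump, had 551, 848, 504 and 654 normalized counts in A to D and 583, 557, 450, 441 and 544 in E to I. Library B was the highest, and G and H were below all controls. The means were 639 ± 152 (SD, n = 4) and 515 ± 65.0 (SD, n = 5), a log2 fold change of -0.29 (95% interval -0.61 to 0.03, limma adjusted p = 0.493). Without B the log2 fold change was -0.15.

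Tap2 had 465, 496, 328 and 401 normalized counts in A to D and 389, 413, 359, 333 and 376 in E to I. All 5 sgCcnd1 libraries lay within the control range. The log2 fold change was -0.16 (95% interval -0.42 to 0.10, limma adjusted p = 0.650), and -0.08 without B. For both chains of the pump the spread was wider in sgRosa26, with a coefficient of variation of 23.9% for Tap1 and 17.7% for Tap2, than in sgCcnd1, at 12.6% and 8.06%.

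Tapbp had 2192, 2435, 2005 and 2217 normalized counts in A to D and 1888, 1978, 2099, 1885 and 1934 in E to I. All of the sgCcnd1 libraries except G were below all controls. The means were 2212 ± 176 (SD, n = 4) and 1957 ± 88.1 (SD, n = 5), 88.4% of the control level. The log2 fold change was -0.17 (95% interval -0.34 to -0.0055) with an unadjusted limma p of 0.0440 and an adjusted p of 0.444. Tapbp had the narrowest spread of the members in sgCcnd1, with a coefficient of variation of 4.50%.

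The immunoproteasome subunits replace constitutive ones and change which peptides are made. Psmb9 had 237, 417, 280 and 308 normalized counts in A to D and 263, 261, 215, 183 and 236 in E to I. Control A lay inside the sgCcnd1 range, and G, H and I were below all controls. The means were 311 ± 76.8 (SD, n = 4) and 232 ± 33.6 (SD, n = 5), 74.6% of the control level and the largest difference among the 10. The log2 fold change was -0.40 (95% interval -0.75 to -0.06) with an unadjusted limma p of 0.0259 and an adjusted p of 0.384. It was -0.25 without B (adjusted p = 0.696) and -0.32 without H.

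Psmb8 had 529, 650, 410 and 529 normalized counts in A to D and 449, 498, 493, 375 and 470 in E to I. Only H lay under all 4 controls. The log2 fold change was -0.20 (95% interval -0.48 to 0.08, limma adjusted p = 0.588). Psmb10 had 400, 528, 378 and 421 normalized counts in A to D and 370, 448, 435, 344 and 334 in E to I. Libraries F and G were above 3 of the 4 controls and the other 3 sgCcnd1 libraries below all of them. The log2 fold change was -0.16 (95% interval -0.43 to 0.11, limma adjusted p = 0.659). Without B the log2 fold change was -0.10 for Psmb8 and -0.06 for Psmb10.

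Nlrc5, the transactivator, had 718, 614, 638 and 617 normalized counts in A to D and 577, 486, 641, 464 and 599 in E to I. All of the sgCcnd1 libraries except G were below all controls. The means were 647 ± 48.7 (SD, n = 4) and 553 ± 75.7 (SD, n = 5), a log2 fold change of -0.23 (95% interval -0.47 to 0.0007, limma adjusted p = 0.454, unadjusted p = 0.0506). Counting error alone gives a coefficient of variation of 5.58% for Psmb9, which had the fewest counts of the members before correction for length, in sgRosa26, where 24.7% was measured, and of 0.566% for B2m, where 20.5% was measured. Reads are not identified by molecule, so this covers counting error only.

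**Figure D2:**
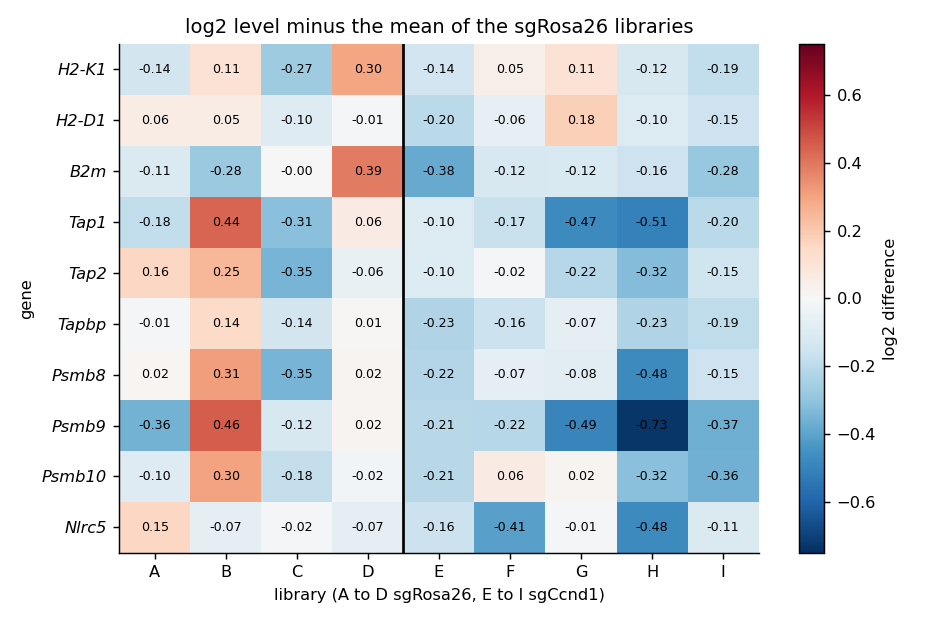
Heat map of the log2 level of each class I pathway gene (y axis) in each library (x axis) minus the mean of the 4 sgRosa26 libraries, with the value in each cell and a line between the groups. All 10 genes are below the control mean in C, E, H and I, from both groups, and H holds the lowest value of 9 libraries for 5 genes.

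The members did not move as 1 block over the libraries. Library B was the highest of 9 for 6 members, the transporter, tapasin and immunoproteasome genes, but the third lowest for B2m, which was highest in D. In library G, H2-D1 was the highest of 9 while Tap1 and Psmb9 were next to lowest. Library H was the lowest for Tap1, Tapbp, Psmb8, Psmb9 and Nlrc5, with a median over the 10 members of -0.32 (log2) from the control mean. The same median was -0.20 in E, -0.10 in F, -0.08 in G and -0.19 in I, and -0.05, 0.20, -0.16 and 0.01 in A to D. Control C at -0.16 was thus lower than F and G. Without H, the log2 fold change was -0.04 for H2-K1, -0.06 for H2-D1, -0.22 for B2m, -0.24 for Tap1, -0.12 for Tap2, -0.16 for Tapbp, -0.13 for Psmb8, -0.32 for Psmb9, -0.12 for Psmb10 and -0.17 for Nlrc5. The median of the members was then -0.15.

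The mean profile of the members over the 9 libraries, each gene centred on its own mean, was closest to Tapbp among them (mean absolute difference 0.047 log2 units) and farthest from Psmb9 (0.169), B2m (0.161) and Nlrc5 (0.160). Of 8933 other genes whose mean reached 100 normalized counts, the nearest by this measure were Zfp950 (0.046), Med28 (0.051), Ric8a (0.056), Usp20 (0.059), Trex1 (0.060) and Emc1 (0.061), where the median gene was at 0.185. None of these 6 passed the limma test (adjusted p from 0.619 to 0.787).

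Each immunoproteasome subunit takes the place of 1 constitutive catalytic subunit: Psmb8 that of Psmb5, Psmb9 that of Psmb6 and Psmb10 that of Psmb7. Psmb5 was at 780 ± 149 and 831 ± 160 normalized counts, Psmb6 at 1458 ± 308 and 1493 ± 226, and Psmb7 at 1525 ± 225 and 1802 ± 153, in sgRosa26 and sgCcnd1 (SD, n = 4 and n = 5). Their log2 fold changes were 0.09, 0.04 and 0.25 (limma adjusted p = 0.865, 0.936 and 0.417). The log2 ratio of normalized counts, not corrected for length, was formed within each library for the 3 pairs.

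The ratio of Psmb10 to Psmb7 was -1.74, -1.40, -2.01 and -2.13 in A to D and -2.07, -2.14, -2.09, -2.37 and -2.47 in E to I. It was lower by 0.41 in sgCcnd1, with F, H and I below all controls (exact two-sided permutation p = 0.0317, adjusted over the 3 ratios 0.0952). Psmb9 to Psmb6 went from a mean of -2.24 ± 0.43 to -2.68 ± 0.35 (SD, n = 4 and n = 5; exact permutation p = 0.143, adjusted 0.159). Psmb8 to Psmb5 went from -0.56 ± 0.22 to -0.85 ± 0.30 (exact permutation p = 0.159, adjusted 0.159). All 3 differences were negative, and none was past the threshold after adjustment. The smallest p that 4 against 5 libraries allow is 0.00794.

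Psmb5, Psmb6, Psmb7 and the genes of the proteasome core and cap, which do not depend on interferon, mostly had estimates above 0. Of 31 such subunits tested (3 catalytic, 11 structural subunits of the 20S core and 17 of the 19S regulator), 25 had an estimate above 0, against 52.9% of all genes, and 11 were higher and 0 lower at an unadjusted p under 0.05, where 5.22% of all genes were higher. The median log2 fold change was 0.09, and 0 passed when adjusted over all genes. Without H, 24 had an estimate above 0, against 52.9% of all genes, and 5 were higher at an unadjusted p under 0.05, against 3.73%. Psma3, a core subunit, was at 1166 ± 87.5 and 1411 ± 68.7 normalized counts (limma log2 fold change 0.28, adjusted p = 0.270), and Psmd6, a cap subunit, at 896 ± 41.1 and 1080 ± 45.1 (0.27, adjusted p = 0.255). The core subunits Psmb1 (0.26) and Psma6 (0.25) and the cap subunits Psmd13 (0.20) and Psmd2 (0.18) had limma adjusted p-values from 0.354 to 0.389.

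**Figure D3:**
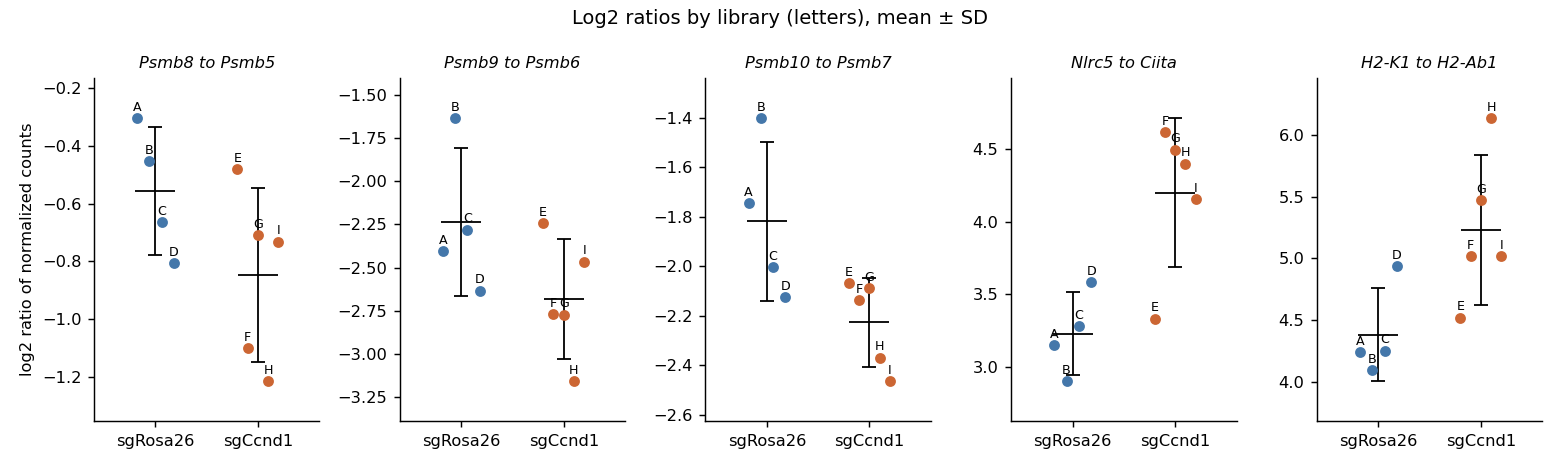
Log2 ratio of normalized counts within each library (y axis, which does not start at 0) for 3 pairs of immunoproteasome and constitutive subunits, Nlrc5 to Ciita and H2-K1 to H2-Ab1, by group (x axis), with bars for the mean ± SD. The 3 subunit ratios overlap between groups, and for Nlrc5 to Ciita and H2-K1 to H2-Ab1 all sgCcnd1 libraries except E are above all controls.

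Other heavy chains of class I type were examined from a list of 20 genes, of which 13 could be tested. Of these, 12 had an estimate below 0, against 47.1% of all genes, and 4 were lower at an unadjusted p under 0.05, against 5.74% (median log2 fold change -0.31). None passed in limma over all genes. Without H, 3 were lower at an unadjusted p under 0.05, against 4.29% of all genes (median -0.25). H2-Q4 had 1173, 1145, 1022 and 1082 normalized counts in A to D and 904, 885, 975, 794 and 903 in E to I, so that the groups did not overlap, as for 1.97% of all genes. Its log2 fold change was -0.31 (95% interval -0.49 to -0.13, limma adjusted p = 0.255), and DESeq2 called it lower with all libraries (adjusted p = 0.0478) but not without H (adjusted p = 0.209). H2-T23 encodes Qa-1, which natural killer cells read through CD94 and NKG2A. It was at 2895 ± 252 (SD, n = 4) and 2310 ± 320 (SD, n = 5), with 4 of 5 sgCcnd1 libraries below all controls (log2 fold change -0.33, limma adjusted p = 0.311). H2-M2 was low, at 21.9 ± 8.91 and 9.50 ± 3.87 normalized counts (limma log2 fold change -1.10, adjusted p = 0.354). H2-Q10, a secreted class I protein made by the liver and named here after its values were seen, was at 27697 ± 3979 and 27137 ± 3269 (limma log2 fold change -0.03, adjusted p = 0.959).

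Genes that act with the members in the endoplasmic reticulum and cytosol also mostly had estimates above 0. Of 9 loading chaperones and peptide trimming genes, 7 had an estimate above 0, against 52.9% of all genes, and 1, Canx, the chaperone of new heavy chains, was higher at an unadjusted p under 0.05, against 5.22%. Canx was at 5526 ± 191 and 6230 ± 346 normalized counts (limma log2 fold change 0.17, adjusted p = 0.437), and its log2 fold change was 0.14 without H. Without H, 0 genes of this list and 0 of the peptidases were at an unadjusted p under 0.05. Of 6 cytosolic peptidases, 5 had an estimate above 0, and Lap3 was at 5287 ± 274 and 6063 ± 323 (0.20, limma adjusted p = 0.382). Of 4 proteasome activator genes 2 had an estimate below 0 (3 without H), and only Psme4, which encodes the activator PA200, was at an unadjusted p under 0.05 (0.20, limma adjusted p = 0.338). Of 8 class I-like proteins tested, 3 had an estimate below 0 (2 without H) and 0 reached an unadjusted p under 0.05, with a median of 0.08 (0.13 without H).

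Among the transcription factors that act on class I or class II promoters, none of those named here passed in limma over all genes. Irf1, a factor that interferon induces, was at 691 ± 148 and 566 ± 139 normalized counts in sgRosa26 and sgCcnd1 (SD, n = 4 and n = 5; log2 fold change -0.30, limma adjusted p = 0.584), and its log2 fold change was -0.14 without H. Creb1, which binds the response element core, was at 265 ± 26.9 and 315 ± 14.7 (0.25, limma adjusted p = 0.354). Of 7 interferon receptor, ligand and Janus kinase genes tested, 0 were at an unadjusted p under 0.05, with a median of 0.04 (0 and 0.05 without H).

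**Figure D4:**
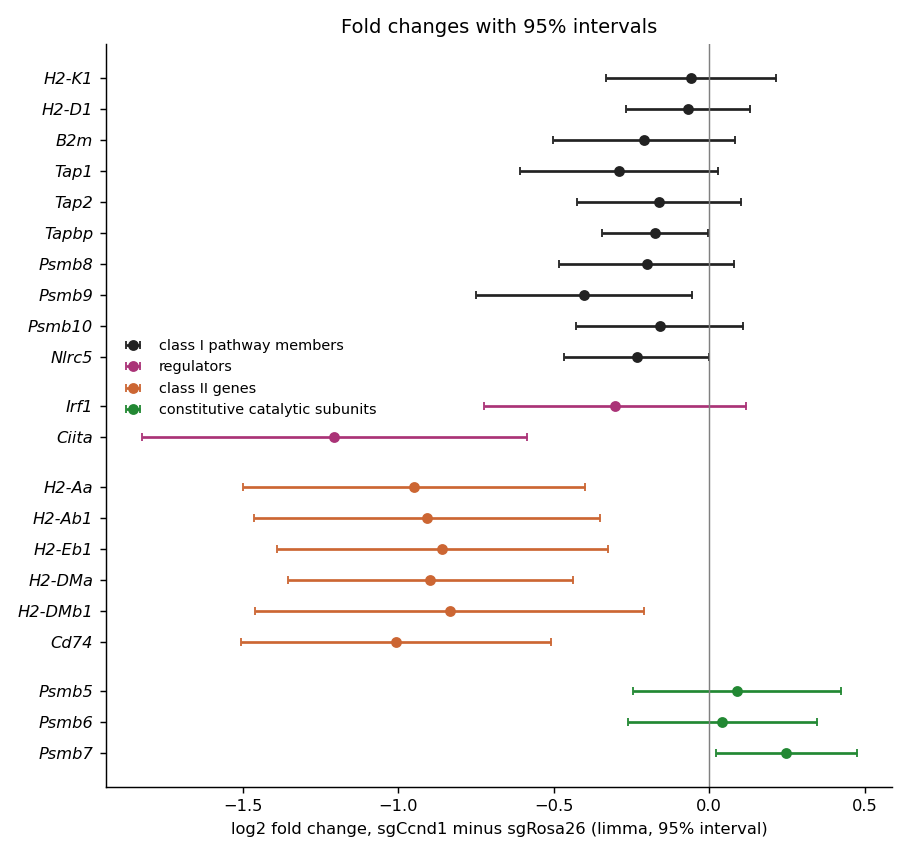
Log2 fold change, sgCcnd1 minus sgRosa26 (x axis), with its 95% interval in limma for the class I pathway genes, 2 regulators, 6 class II genes and 3 constitutive catalytic subunits (y axis). Points of the class I pathway lie between -0.40 and -0.06, and those of class II genes between -1.01 and -0.83.

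The class II genes were the natural counterpart. All 6 tested were lower at an unadjusted p under 0.05, against 5.74% of all genes, with a median log2 fold change of -0.90 against -0.19 for the members, and 0 passed in limma over all genes. DESeq2 called 3 of the 6 lower, Cd74 (adjusted p = 0.0145), H2-DMa (0.0264) and H2-Aa (0.0404), against 0.539% of all genes. The groups did not overlap for 3 (Cd74, H2-DMa and H2-Ab1), against 1.97% of all genes. Without H, all 6 were still at an unadjusted p under 0.05 in limma, against 4.29% of all genes, with a median of -0.69, and DESeq2 called Cd74 (adjusted p = 0.0182) and H2-Aa (0.0329). Cd74, the invariant chain, was at 1958 ± 313 and 1021 ± 381 normalized counts (limma log2 fold change -1.01, adjusted p = 0.245), H2-Aa at 1075 ± 211 and 583 ± 209 (-0.95, adjusted p = 0.255) and H2-DMa at 94.4 ± 16.4 and 51.4 ± 14.3 (-0.90, adjusted p = 0.247). Ciita, the paralog of Nlrc5 for class II, had 79.9, 81.5, 64.8 and 50.5 normalized counts in A to D and 56.4, 18.8, 27.4, 21.0 and 32.6 in E to I. Its log2 fold change was -1.21 (95% interval -1.83 to -0.59, limma adjusted p = 0.250), against -0.23 for Nlrc5. DESeq2 called Ciita lower with all libraries (adjusted p = 0.0368) but not without H (adjusted p = 0.151).

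The classes are set side by side within libraries by 2 ratios that were chosen after their genes had been seen to differ, so they are a description and carry no test. The log2 ratio of Nlrc5 to Ciita was 3.15, 2.90, 3.28 and 3.58 in A to D and 3.33, 4.62, 4.50, 4.40 and 4.16 in E to I. It was higher by 0.97 in sgCcnd1, with 4 of 5 libraries above all controls, and by 0.92 without H. The log2 ratio of H2-K1 to the class II beta chain H2-Ab1 was 4.25, 4.10, 4.26 and 4.94 in A to D and 4.52, 5.02, 5.47, 6.13 and 5.02 in E to I. It was higher by 0.85, again with only E inside the control range, and by 0.62 without H.

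Markers of immune cells had medians below 0 in each list, with few single markers at an unadjusted p under 0.05 outside the pan-leukocyte and T cell lists. Of 8 pan-leukocyte markers, 7 were lower at an unadjusted p under 0.05, against 5.74% of all genes (median log2 fold change -0.44), and the summed level of the 8 was 2663 to 3217 normalized counts in sgRosa26 and 2399 to 2907 in sgCcnd1. The largest part of that sum was Lcp1, named after its values were seen, with means of 1640 and 1734. It alone of the 8 had an estimate above 0, and the other 7 were at 56.5% to 75.5% of the control mean. Of 10 T and natural killer cell markers 6 were tested and 5 were lower (median -1.07, summed level 100.8 to 284 and 57.0 to 168). Of 5 dendritic cell markers tested 1 was lower (median -0.36, 193 to 240 and 123 to 200), of 8 B and plasma cell markers 1 (median -0.45, 1734 to 4080 and 1300 to 3957), and of 10 Kupffer cell and macrophage markers 2 (median -0.11, 3395 to 4510 and 3151 to 3954). None of these markers passed in limma over all genes, and DESeq2 called 2 lower, both pan-leukocyte (Laptm5, adjusted p = 0.0235, and Cd52, adjusted p = 0.0419, named after their values were seen). Without H, DESeq2 called 0 pan-leukocyte markers, and limma had 7 of 8 of them, 2 of 6 T and natural killer cell, 0 of 5 dendritic cell, 1 of 8 B and plasma cell and 2 of 10 Kupffer cell and macrophage markers lower at an unadjusted p under 0.05, against 4.29% of all genes. Their medians were then -0.44, -0.93, -0.36, -0.50 and -0.22, and 9 of the 10 Kupffer cell and macrophage markers had an estimate below 0, against 7 with H. Sinusoidal endothelial markers had a median of -0.05 (0 of 8 at an unadjusted p under 0.05, summed level 2763 to 4050 and 2946 to 4260), stellate cell markers -0.27 (3 of 8 lower, 4126 to 6502 and 3598 to 5411), cholangiocyte markers -0.31 (1 of 5 lower, 928 to 1906 and 750 to 1165), hepatocyte markers 0.02 (0 of 8) and red cell markers 0.05 (0 of 4, 1159 to 2436 and 1893 to 2179). Without H, 2 of 8 stellate cell and 1 of 5 cholangiocyte markers were lower at that p and 0 of the endothelial, hepatocyte and red cell markers, with medians of -0.23, -0.19, -0.01, 0.07 and 0.18. No marker found in the table was at 0 in all 9 libraries. By library, the median log2 difference of the dendritic cell markers from the control mean was -0.08, 0.32, -0.16 and -0.10 in A to D and -0.15, -0.89, -0.17, -0.68 and -0.13 in E to I. That of the T and natural killer cell markers was -0.79, 0.80, 0.43 and -0.36 in A to D and 0.03, -1.37, -0.80, -1.604 and -1.50 in E to I. That of the B and plasma cell markers was -0.13, 0.40, -0.16 and -0.19 in A to D and 0.37, -0.69, -0.29, -0.28 and -1.06 in E to I. The members, whose medians by library are given above, were highest in B, as were these 3 lists. They were lowest in H, as were the T and natural killer cell markers, whereas the dendritic cell markers were lowest in F, where the members were at -0.10, and the B and plasma cell markers in I. Pan-leukocyte markers were highest in B (0.23) and lowest in G (-0.57). Kupffer cell and macrophage markers were highest in D (0.25) and lowest in F (-0.30). Class II genes (0.38 in B, -1.74 in H), cholangiocyte markers (0.69 and -0.74) and red cell markers (0.71 and -0.87) were also highest in B and lowest in H. In bulk RNA, fewer cells of a type and less RNA per cell cannot be told apart, and the part of these cells in the values of the members was not tested.

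The receptors that read class I had low counts. Leaving out Pilra, a myeloid inhibitory receptor on the list that is not itself known to read class I, 4 were tested. All 4 had an estimate below 0, against 47.1% of all genes, and 2 were lower at an unadjusted p under 0.05, against 5.74% (also 2 without H, against 4.29%). Cd8a, the co-receptor of cytotoxic T cells, had 14.8, 39.4, 46.0 and 20.4 normalized counts in A to D and 40.4, 8.95, 7.83, 3.00 and 8.52 in E to I (limma log2 fold change -1.41, adjusted p = 0.388). Without its value in E, the sgCcnd1 group lay below all controls. Klrk1, the activating receptor NKG2D, was at 22.6 ± 4.13 and 12.1 ± 5.54 (-0.95, limma adjusted p = 0.351). Pilra was at 39.3 to 52.4 and 28.4 to 32.2 with no overlap (-0.57, limma adjusted p = 0.255).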

How the data were processed

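RNA-seq of 9 mouse livers (4 sgRosa26, 5 sgCcnd1) was analysed. Per the submitters' processing notes, the tools were Trim Galore 0.6.7, HISAT2 2.2.1, featureCounts 2.0.3, FastQC 0.74, MultiQC and DESeq2 2.11.40.8, and the builds mm10 and GRCm38; counting settings and use of strand are not given in the sources used here. The authors deposited a signal per gene, named as normalized counts per the file headers, for 27179 Entrez genes (1319 without a symbol). Values divided by what 1 read is worth in a library came out whole for 100% of genes (tolerance 0.01 reads), so reads were recovered. Size factors computed from them by DESeq2 were 0.999997 to 1 times those recovered.

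The test was limma 3.58.1 (R 4.3.3, lmFit, eBayes with trend, two-sided) on log2(normalized count + 1) over the 12993 genes whose mean reached 10, with Benjamini-Hochberg adjustment over all of them and a threshold of 0.05. Fold changes on this scale are differences of mean logs: the pseudocount pulls those of low genes toward 0, and a spread between libraries can make them larger than a ratio of means (Cd8a, -1.41 in limma and -1.06 in edgeR). Single ratios had exact permutation tests. Alternatives were pseudocounts of 0.1 and 10, a filter at 100 or none, quantile and 75th percentile scaling, robust eBayes, edgeR 4.0.16 (TMM, quasi-likelihood) and DESeq2 1.42.0 on recovered reads, and leaving out each library. The fits were tested on simulated counts. Exon lengths came from GENCODE vM21, promoters from RefSeq. Figures used matplotlib 3.10.9.

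The members, lists and tests were chosen with earlier results of these data known. Named genes are the members, Ccnd1, Psmb5, Psmb6, Psmb7, Ciita, Irf1, up to 3 genes per list with the smallest unadjusted p under 0.05, and the 6 genes nearest to the mean profile of the members. A withheld item is not reported here.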

Additional observations from a re-analysis of the deposited data

Results flagged for a closer look

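A library far from its group was found in 7 of 84 groups of values examined, and about 1 in 20 groups, or 4.2 here, would be so by chance. None of the 7 was a class I pathway member. In sgRosa26, library D had 8.74 normalized counts of H2-M2 against 25.3 to 28.3 in the other controls, 5811 of Canx against 5410 to 5446, and 1915 of Psmb6 against 1259 to 1362. Library B had 1331 of Psmb1 against 1105 to 1138 in the other controls. In sgCcnd1, library F had 1533 of Psma3 against 1369 to 1392 in the rest of its group, and library E had 40.4 of Cd8a against 3.00 to 8.95. Library A had 12.2 M reads against 16.2 M to 16.6 M (M, mega) in the other controls. No cause was tested for any of these.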

How the results depend on the processing

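No paired analysis was possible because no column name holds a replicate number. Over 20 alternatives for each of the 10 members, 199 of 200 estimates were below 0 and 0 passed an adjusted p of 0.05 (adjusted p from 0.254 to 0.984). The exception in sign was H2-K1, at 0.040 without library D. Log2 fold changes with a library left out ranged from -0.15 to 0.04 for H2-K1, -0.13 to -0.03 for H2-D1, -0.30 to -0.08 for B2m, -0.40 to -0.15 for Tap1, -0.28 to -0.08 for Tap2, -0.22 to -0.13 for Tapbp, -0.32 to -0.10 for Psmb8, -0.52 to -0.25 for Psmb9, -0.22 to -0.06 for Psmb10 and -0.29 to -0.17 for Nlrc5. Members lower at an unadjusted p under 0.05, 2 in limma, were 4 with quantile normalization (against 5.72% of all genes), 4 with edgeR, and 0 (without H) to 5 (without C) with a library left out. Members without overlap, 0 with all libraries, were 0 to 2 with a library left out: 2 without C or G and 1 without A or B, against 3.25%, 2.50%, 3.63% and 2.67% of all genes. All genes lower, 1 in limma, were 2 with quantile normalization, 70 with DESeq2 and 0 to 2 in limma with a library left out; without H they were 0 by edgeR and 25 by DESeq2, fits chosen after seeing the data. All genes higher, 0 in limma, were 34 with DESeq2, 0 in limma with a library left out, and 16 by DESeq2 without H. DESeq2 left 254 adjusted p-values undefined. The 75th percentile scaling moved the unadjusted split from 52.4% to 67.3% lower, and a minimum mean of 100 to 37.5%. The 3 subunit ratios stayed below 0 and above the threshold in each alternative: with a library left out, -0.38 to -0.20 for Psmb8 to Psmb5, -0.58 to -0.24 for Psmb9 to Psmb6 and -0.51 to -0.27 for Psmb10 to Psmb7. With a library left out, Nlrc5 to Ciita was 0.86 to 1.19 and H2-K1 to H2-Ab1 0.62 to 1.03. Fewer samples enter those fits, and the causes of the other shifts were not tested.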
